A study of Mus musculus with 3 samples.

Results

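The 5S ribosomal RNA gene copies of the mouse genome were followed in RNA that came down with Flag-tagged FTO and in RNA recovered with IgG in its place. A copy was any row of the count table whose symbol begins with n-R5s or is Rn5s or 5S_rRNA, which gave 195 of 39179 genes. FTO removes methyl groups from adenosines in RNA. The Flag-IP group was 2 libraries made with the anti-Flag M2 antibody, and the IgG-IP group was 1 library made with IgG. All 3 came from white fat of C57BL/6 mice aged 16 weeks that carried the Flag-FTO transgene and were fasted overnight. The promoter of the transgene is not given in the sources used here, and no library came from a mouse without the tag. Nothing in the labels assigns the libraries to separate animals. P-values therefore rest only on the spread between the 2 Flag-IP libraries, which may be technical. In the main fit this spread was pooled over all genes. An SE or p from it does not measure how well the Flag-IP libraries agree in a single copy. The 1 IgG-IP library gives no measure of spread in its own group.

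5S rRNA is the smallest RNA of the large ribosomal subunit. RNA polymerase III makes it outside the nucleolus from genes whose promoter lies inside the transcribed sequence, where the factor TFIIIA binds across box A, an intermediate element and box C. The RNA then joins the ribosomal proteins Rpl5 and Rpl11 before it enters the subunit, and free 5S particles of this kind also bind Mdm2. The genome holds a tandem array of these genes and many scattered copies that have diverged from them.

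The counts followed the sequence of a copy, so the copies are described by how they differ from Rn5s, the reference copy (chr8:123598158-123598276, minus strand). Positions are those of GENCODE M21 on GRCm38. Differences are counted from 1 at the 5′ end of the RNA, with the base of Rn5s written before the position. The stretches taken here for box A and box C are positions 49 to 60 and 80 to 93 of Rn5s. n-R5s106 (chr8:123548956-123549074, minus strand) differs by T62A, n-R5s102 (chr8:123542178-123542296, minus strand) by G89T, A90T and G93C, and n-R5s115 (chr8:123564286-123564404, minus strand) by C3A and G86A. n-R5s193 (chr4:149817732-149817840, plus strand) begins with the same 90 bases as Rn5s and then leaves it. n-R5s194 (chr3:4338998-4339116, plus strand) carries G1A, C30T, G37A, A42T and G47A.

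The array held most of the counts. Of the 195 copies, 42 lie in it on the minus strand of chromosome 8 and 153 are scattered over 21 chromosomes. Neighbouring rows of the array start a median of 1697.5 bases apart, and its annotated rows span 84.96 kb. The 42 array copies took 85.1% and 79.6% of all 5S counts in Flag-IP 1 and Flag-IP 2, and 89.2% in the IgG-IP library. Among them, 26 have exactly the sequence of Rn5s, and those 26 alone took 80.8% and 75.1% in Flag-IP 1 and Flag-IP 2, and 86.2% in IgG-IP. Another 9 rows of the ribosomal RNA class lie in the same array under Gm symbols outside the rule, and 6 of them have the Rn5s sequence too.

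Summed over all 195 copies, 5S rRNA was higher in both Flag-IP libraries than in the IgG-IP library. The sums were 47190 counts in Flag-IP 1 and 37148 in Flag-IP 2, against 24812 in IgG-IP. These are 0.0480% and 0.0388% of the counts of the Flag-IP libraries, against 0.0334% in IgG-IP, with 95% Wilson intervals of 0.0476% to 0.0485%, 0.0384% to 0.0392% and 0.0330% to 0.0339% that cover counting error only. Without n-R5s193, a copy outside the array, the shares were 0.0412% (Flag-IP 1) and 0.0312% (Flag-IP 2), against 0.0303% in IgG-IP. The 26 copies with the Rn5s sequence held 0.0388% and 0.0291%, against 0.0288% in IgG-IP. In these shares Flag-IP 2 was thus close to IgG-IP once n-R5s193 was left out. After TMM scaling, which aligns the libraries on their bulk of genes, the sum of all 195 copies stood at a log2 ratio to IgG-IP of 1.12 in Flag-IP 1 and 0.65 in Flag-IP 2. The mean of the Flag-IP libraries was 1.87-fold the IgG-IP value, a log2 ratio of 0.91 ± 0.33 (SD of the 2 Flag-IP ratios). An exact permutation of 2 libraries against 1 cannot give a p under 1 in 3, and no p is given for the sum.

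The size of this difference depended on the scaling. With scaling to total counts, which moved the log2 fold changes of all tested genes by a median of -0.52, the summed log2 ratios were 0.52 (Flag-IP 1) and 0.21 (Flag-IP 2). Relative to the median tested gene, the 5S sum was higher by 0.87 on the log2 scale with TMM and by 0.86 with total counts. Total depth was 98227791 and 95824218 counts for Flag-IP 1 and Flag-IP 2, against 74176962 for IgG-IP. Of these, 29320915 and 31900441 counts in Flag-IP, against 30944148 in IgG-IP, fell on Gm26924, a row annotated as a lincRNA on chromosome 17. In the gene lists used here it stands with the other ribosomal RNA rows.

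**Figure D1:**
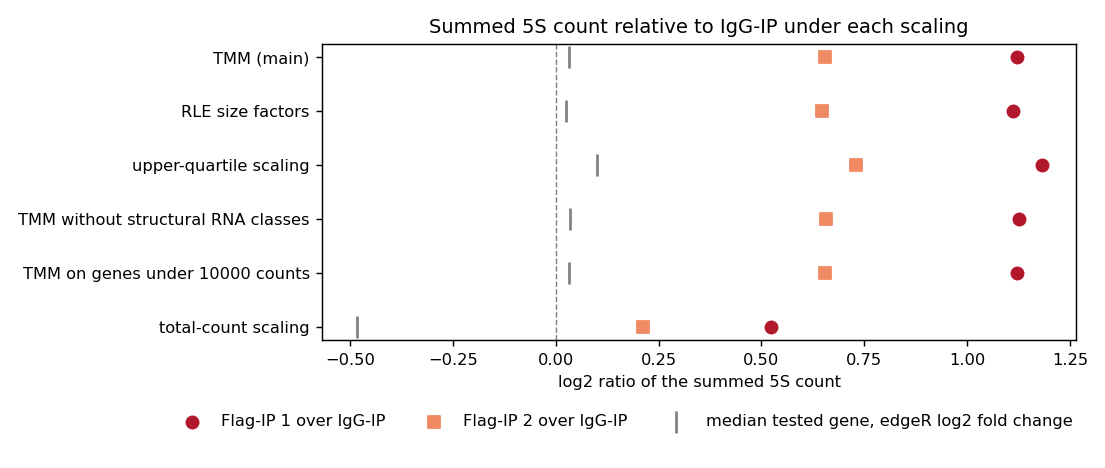
Log2 ratio of the summed count of the 195 5S copies to the IgG-IP library (x axis) under 6 scalings (y axis), for Flag-IP 1 (circles) and Flag-IP 2 (squares), with the median edgeR log2 fold change of all tested genes as a bar. Flag-IP 1 lies to the right of Flag-IP 2 under every scaling plotted, and with total counts the ratios are 0.52 and 0.21 while the median gene is at -0.48.

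The copies that share the Rn5s sequence also shared their counts. Rn5s itself had 1388 and 1078 counts in Flag-IP 1 and Flag-IP 2, against 768 in IgG-IP. Its log2 fold change was 0.82 ± 0.23 (SE, edgeR adjusted p = 0.00728). That call was lost with total-count scaling (0.29, adjusted p = 0.400), DESeq2 (adjusted p = 0.0546), the likelihood ratio test (adjusted p = 0.107) and the test against a 1.5-fold change (adjusted p = 0.344). Over the 26 identical copies the counts ran from 1341 to 2219 with a median of 1422 in Flag-IP 1, from 953 to 1705 with a median of 1041 in Flag-IP 2, and from 705 to 1485 with a median of 783.5 in IgG-IP. In each of the 26 copies both Flag-IP libraries lay above IgG-IP in counts normalized with TMM, and Flag-IP 1 lay above Flag-IP 2. With total-count scaling the 26 copies together had log2 ratios to IgG-IP of 0.43 in Flag-IP 1 and 0.01 in Flag-IP 2. No stretch of 36 bases in these copies is found in a single annotated transcript only, so a read from inside the gene cannot be given to a particular copy. Their 26 values are therefore not independent measurements.

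Outside the ends of the array the identical copies were close to each other. Without n-R5s100 and n-R5s149, the remaining 24 had a mean of 1419 ± 61.4 counts in Flag-IP 1 and 1032 ± 43.7 in Flag-IP 2, against 778 ± 41.6 in IgG-IP (SD across copies). Counting error alone gives an SD of 37.7, 32.1 and 27.9 for such means. n-R5s100, the first row of the array by coordinate (chr8:123538786-123538904), had 2219 and 1705 counts in the Flag-IP libraries, against 1485 in IgG-IP. It exceeded the median of the other 24 by 811 and 665.5 counts in Flag-IP and by 709.5 in IgG-IP. n-R5s149, the last row but 1 (chr8:123621928-123622046), had 1853 and 1423 against 1221, an excess of 445 and 383.5 in Flag-IP and 445.5 in IgG-IP. In raw counts these excesses were about as large in IgG-IP as in Flag-IP, and both copies had the lowest fold changes of the 26, at 0.54 ± 0.23 (adjusted p = 0.109) and 0.57 ± 0.23 (adjusted p = 0.0904, edgeR).

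**Figure D2:**
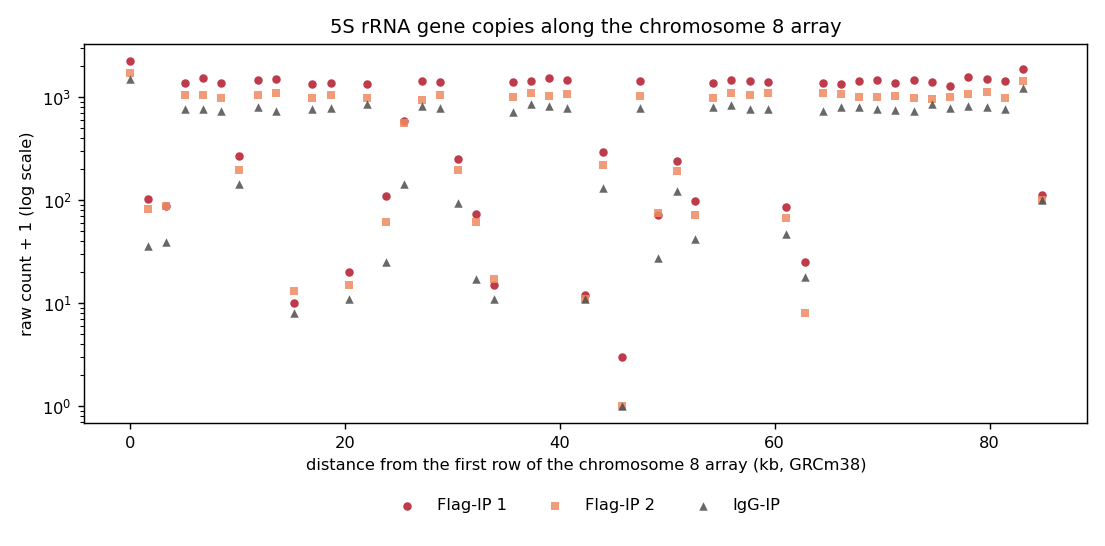
Raw count plus 1 (log scale) of the 51 annotated 5S rows of the chromosome 8 array, 42 members and 9 rows under other symbols, against distance from the first row in kb, for Flag-IP 1 (circles), Flag-IP 2 (squares) and IgG-IP (triangles). Copies with the Rn5s sequence form a level band, with the first copy at 2219, 1705 and 1485 counts above it, and variant copies fall below the band.

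Tested singly, 33 of the 48 copies that passed the filter on low counts were called higher in Flag-IP (quasi-likelihood test of edgeR, Benjamini-Hochberg adjusted p under 0.05), where 5.58% of all 17587 tested genes were. At an unadjusted p under 0.05, 39 were higher, where 12.9% of genes were. Copies called lower numbered 0 with edgeR, where 5.77% of genes were, and 0 with DESeq2, where 0.824% were. At an unadjusted p under 0.05 both tools gave 0 lower copies too. In edgeR 11.8% of genes were lower at that threshold, and the DESeq2 share is not given. DESeq2 called 7 higher, where 0.745% of genes were. It gave no adjusted p to 15684 of the 17587 genes and to 16 of the 48 copies, and these count as not called. Both DESeq2 shares are thus lower than among genes with an adjusted p, and do not compare evenly with the copies. A likelihood ratio test with a common dispersion called 8 higher, where 6.43% were, and a test against a 1.5-fold change 7, where 1.88% were. Those last tests called 0 copies lower, where 4.27% and 0.978% of genes were. Since 22 of the 33 share the Rn5s sequence, the copies were also summed by sequence before the fit. Then 7 of 16 distinct sequences were higher, where 5.52% of all rows were, and 0 were lower, where 5.85% were. With total-count scaling the calls were 5 of 48 higher, where 1.94% of genes were, namely n-R5s193, n-R5s115, n-R5s114, n-R5s119 and n-R5s118, and 1 lower, n-R5s194, where 17.1% of genes were. At least 2-fold higher CPM in both Flag-IP libraries was met by 10 of 48, where 9.07% of genes met it, and 0 were at least 2-fold lower, where 4.24% were. Without Flag-IP 2 the higher count was 32, where 14.7% of genes were.

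The other highly counted copies of the Rn5s sequence differed little from Rn5s. The edgeR log2 fold changes were 0.83 for n-R5s146, 0.75 for n-R5s133, 0.77 for n-R5s123, 0.72 for n-R5s122, 0.91 for n-R5s104, 0.95 for n-R5s108 and 0.82 for n-R5s124, each with an SE of 0.23. All 7 passed the edgeR threshold with TMM scaling, with adjusted p between 0.00143 and 0.0227, and they did not pass with total-count scaling (adjusted p from 0.197 to 0.621). Over the 26 copies, fold changes ran from 0.54 to 0.95 on the log2 scale and 22 were called. As 1 summed row the Rn5s sequence had 38138 and 27892 counts in Flag-IP, against 21380 in IgG-IP, a log2 fold change of 0.77 ± 0.25 (SE, edgeR adjusted p = 0.0267).

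n-R5s193 was the most highly counted single copy and lies outside the array. It had 6698 and 7295 counts in Flag-IP 1 and Flag-IP 2, against 2325 in IgG-IP, or 7213 and 7224 normalized counts against 2190. The Flag-IP libraries were nearly equal here, unlike in the Rn5s copies, and both stood clear of IgG-IP. Its log2 fold change was 1.72 ± 0.26 (SE, edgeR adjusted p = 2.87e-09), and 1.20 with total-count scaling. It held 14.2% and 19.6% of all 5S counts in Flag-IP 1 and Flag-IP 2, against 9.37% in IgG-IP. Of its 74 stretches of 36 bases, 17 are found in no other annotated transcript, and these lie at its 3′ end. The annotation places a microRNA gene, Gm47301, over the same bases.

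Among array copies that differ from Rn5s, n-R5s115 had the most counts. It had 584 and 558 counts in Flag-IP 1 and Flag-IP 2, against 141 in IgG-IP, and the Flag-IP libraries differed by 0.19 on the log2 scale. Its log2 fold change was 2.15 ± 0.25 (SE, edgeR adjusted p = 3.13e-15), and 37 of its 84 stretches of 36 bases are found in no other annotated transcript. The 3 copies that differ from Rn5s by T62A (n-R5s106, n-R5s118 and n-R5s130) summed to 752 and 579 counts in Flag-IP, against 356 in IgG-IP. As 1 row their log2 fold change was 1.04 ± 0.22 (adjusted p = 0.000145). Within this trio of equal sequence, n-R5s118 was at 1.40 ± 0.26 and n-R5s106 at 0.83 ± 0.24, a difference between copies that was not tested.

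The G89T, A90T and G93C changes occur together in 7 array copies. They summed to 534 and 433 counts in the Flag-IP libraries, against 180 in IgG-IP, and 6 of the 7 were tested. All 6 were higher, where 5.58% of tested genes were, from 1.16 ± 0.35 for n-R5s131 to 2.17 ± 0.44 for n-R5s119 on the log2 scale (edgeR adjusted p = 0.0147 and 5.08e-05). With total-count scaling n-R5s114 and n-R5s119 passed and the other 4 did not (edgeR adjusted p from 0.0652 to 0.271). The 6 are not independent. n-R5s131, n-R5s114 and n-R5s119 have the same sequence, and n-R5s101 and n-R5s129 share another. Summed by sequence, these were at 1.66 ± 0.26 and 1.55 ± 0.29, and n-R5s102 was at 1.32 ± 0.35. n-R5s119 had 72 and 60 counts against 16, and n-R5s114, with the same sequence, had 107 and 60 against 24. n-R5s127, which carries C34A, T35A and C36A as well, had 2 counts in Flag-IP 1 and none in the other libraries. Among the least counted array copies, the 3 with C44T alone (n-R5s112, n-R5s120 and n-R5s125) each had at most 19 counts in a library and summed to 44 and 40 counts against 30, a log2 fold change of 0.62 ± 0.43 (adjusted p = 0.391).

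Fold changes were also set against the box C letters. Of the 195 copies, 43 hold the box C letters of Rn5s on the strand of the RNA and the reverse complement occurs in 0, and among 3228 other annotated transcripts of 100 to 140 bases 0% hold it on either strand. In the array, 8 copies lack these letters, and they summed to 1118 and 991 counts in Flag-IP, against 321 in IgG-IP, a log2 ratio of 1.85. The 34 array copies that hold them summed to 39027 and 28588 against 21819, a log2 ratio of 0.77. With total-count scaling these ratios were 1.33 and 0.24. Of the 34 copies, 26 have the Rn5s sequence, and the 8 others together were at 0.99 (0.46 with total counts). Of the 8 copies without the letters, n-R5s115 had 584 and 558 counts against 141. The other 7 together were at 1.57 (1.04 with total counts). By distinct sequence, 4 of 7 tested sequences without the letters and 5 of 9 with them lie in the array. The 7 without the letters had log2 fold changes from 1.31 to 2.15, and 5 of them were called higher, where 5.52% of all rows were. The lowest of these, n-R5s64, had only 11 and 12 counts in Flag-IP, against 5 in IgG-IP. The 9 tested sequences with the letters lay from -0.25 to 1.04, and 2 were called higher, against the same 5.52%. These ranges of summed sequences did not overlap, while those of single array copies did, at 1.16 to 2.17 without the letters and 0.20 to 1.40 with them. n-R5s118, which holds the letters, lay at 1.40, above n-R5s102 at 1.32 and n-R5s131 at 1.16, which lack them. The sequences share libraries and partly share reads, the division was noticed in these values, and the difference between the sets was not tested. Box A letters are held by 107 copies, all 42 array copies among them, and by 0.774% of the other transcripts.

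**Figure D3:**
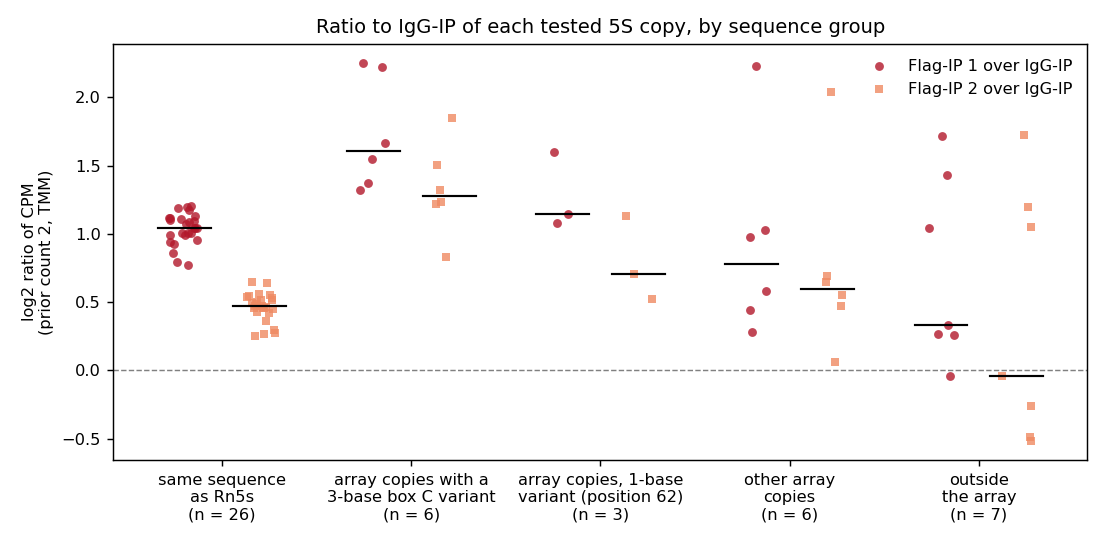
Log2 ratio of CPM to IgG-IP (y axis, prior count 2, TMM) of each of the 48 tested 5S copies by sequence group (x axis), for Flag-IP 1 (circles) and Flag-IP 2 (squares), with black bars at medians. The copies with the 3-base box C variant lie between 0.83 and 2.25, the Rn5s copies between 0.25 and 1.21, and the copies outside the array reach below 0.

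Most copies outside the array had no count. Of the 153, 98 were at 0 in every library, 45 had 1 to 9 counts summed over the libraries, and 10 had 10 or more. Their identity to Rn5s ran from 46.2% to 96.6%, with a median of 73.9%. All 5 copies with at least 95% identity had counts, as did 9 of 12 between 90 and 95%, 9 of 26 between 80 and 90%, and 32 of 110 under 80%. Copies that did not pass the filter on low counts but had any count numbered 49, and together they held 58 and 44 counts in Flag-IP, against 50 in IgG-IP. At that depth no difference in a single such copy was detectable.

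**Figure D4:**
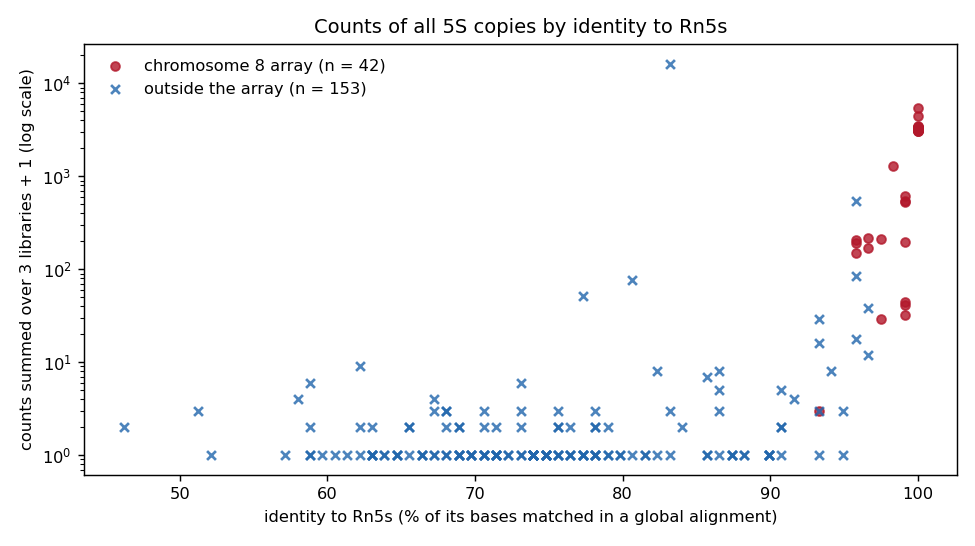
Counts summed over the 3 libraries plus 1 (log scale) of all 195 5S copies against identity to Rn5s in percent, with the 42 array copies as circles and the 153 others as crosses. n-R5s193, at 83.2% identity and 16318 counts, stands far above the other scattered copies.

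Without n-R5s193, the scattered copies were near the IgG-IP level with TMM scaling and below it with total-count scaling. They summed to 347 and 274 counts in Flag-IP 1 and Flag-IP 2, against 347 in IgG-IP, log2 ratios of 0.19 and -0.27 with TMM and -0.41 and -0.71 with total counts. n-R5s194 made up much of this, with 183 and 145 counts in Flag-IP, against 215 in IgG-IP. Its log2 fold change was -0.25 ± 0.24 (SE, edgeR adjusted p = 0.549), and -0.78 with total-count scaling, where it passed (adjusted p = 0.0270). It holds the box C letters, and 42 of its 84 stretches of 36 bases are found in no other annotated transcript. n-R5s185 in the gene Tmem38b had 33 and 20 counts against 31, and n-R5s156 had 28 and 23 against 25. n-R5s56, which lacks the box C letters, had 22 and 20 against 8, a log2 fold change of 1.51 ± 0.72 that did not pass. The difference between scattered and array copies was not tested.

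The 14 rows named 5S_rRNA have 46.2% to 66.4% identity to Rn5s. They summed to 11 and 4 counts in Flag-IP, against 0 in IgG-IP. The highest, annotated as Gm27959 (chr6:23519746-23519856), had 6 and 2 counts against 0, and 8 of the 14 had no count at all. No fold is given, since these values lie near the floor of 3 counts.

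Rows that overlap the copies touch these values. Gm20388 is annotated as a protein-coding gene on the plus strand that spans the whole array (chr8:119910841-124345722), opposite to the 5S genes. It had 56326 and 43668 counts in Flag-IP, against 32242 in IgG-IP. The 51 array rows summed to 87.0% and 82.2% of that in Flag-IP and 84.1% in IgG-IP. The strand setting of the counting is not stated in those sources, so reads of Gm20388 and of the 5S genes cannot be told apart. Of the 9 array rows under Gm symbols, 7 were higher, where 5.58% of tested genes were, and Gm22291 had 1478 and 1120 counts against 795. The 7 include all 6 with the Rn5s sequence, which are not independent of the member copies of that sequence. With these rows added the summed log2 ratio was 0.88.

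Other ribosomal RNAs and other products of RNA polymerase III were measured in the same libraries. The 5.8S row n-R5-8s1, the partner of the large subunit RNA, had 1005 and 717 counts in Flag-IP, against 418 in IgG-IP, a log2 fold change of 1.19 ± 0.23 (edgeR adjusted p = 2.66e-05). mt-Rnr2, the large mitochondrial ribosomal RNA, was at 2.91. Gm26924 was at 0.12 ± 0.38 and Gm26917, the lincRNA row annotated beside it, at -3.37. All 4 tested polymerase III transcripts of the list were higher, where 5.58% of genes were. Vaultrc5, a vault RNA, had 4602 and 3220 counts against 223 (4.28 ± 0.30), and Rn7sk, which restrains transcription elongation, had 654 and 351 against 37 (3.91 ± 0.30). Set against Rmrp, the RNA of RNase MRP, the 5S sum was 133 and 160 counts per 100 in Flag-IP and 583 in IgG-IP, a ratio within each library that no scaling changes. The difference between 5S and these RNAs was not tested.

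Of 33 tested messenger RNAs of the 5S pathway, 2 were called higher, where 5.58% of all genes were, and 1 lower, where 5.77% were. DESeq2 gave none of those 3 an adjusted p. Of the proteins that bind, load or sense 5S, 9 were tested with a median log2 fold change of 0.14, against 0.03 over all tested genes. Only Rpf2, a 5S loading factor of the ribosome, passed, with 7 and 4 counts in Flag-IP against 35 in IgG-IP (-2.51 ± 0.68, edgeR adjusted p = 0.00559). Heatr3, which helps import Rpl5, had 19 and 27 against 41, and Mdn1, a remodelling ATPase of the large subunit, had 74 and 91 against 123. Rpl5 had 17 and 10 counts against 9 and Rpl11 had 24 and 20 against 11, with neither passing. Rrs1, another gene of this list, had 16 and 2 counts against 0 and did not pass (edgeR adjusted p = 0.116). Of the TFIIIA, TFIIIB and TFIIIC genes, 1 of 8 was higher, against 5.58% of all genes. This was Brf1, a TFIIIB subunit, with 54 and 34 counts against 16 (1.59 ± 0.49, adjusted p = 0.0167), a call lost with total-count scaling (adjusted p = 0.150), while Gtf3c5 had 31 and 30 against 13. Gtf3a, which encodes TFIIIA, had 8 and 8 counts against 2 and was not tested.

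Among RNA polymerase III subunits, 1 of 11 was higher, against 5.58% of all genes. This was Polr3gl, with 42 and 30 counts in Flag-IP against 8 in IgG-IP (2.29 ± 0.60, edgeR adjusted p = 0.00361). Polr3a, the largest subunit, had 32 and 31 against 16 and did not pass. Of 5 La and Ro family genes, which encode RNA-binding proteins, 0 passed in edgeR, where 5.58% of all genes were higher and 5.77% lower. At an unadjusted p under 0.05 the number was 0 too, where 12.9% of all genes were higher and 11.8% lower. Larp1 had 38 and 61 counts against 34, and Trove2 had 31 and 12 against 19.

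Markers of white adipocytes were present in every library, as the label of white fat gives. All 10 had counts, 9 were tested and 1 was higher, where 5.58% of all genes were. This was Plin1, which coats the lipid droplet, with 34 and 59 counts in Flag-IP against 12 in IgG-IP. Lep, which encodes leptin, had 37 and 20 against 12 and did not pass. Better counted members lay on the other side without passing, Cidec with 117 and 93 against 152 and Pparg with 68 and 117 against 148. The summed adipocyte markers were 3481 and 2361 counts in Flag-IP, against 3045 in IgG-IP, and 373 and 365 against 379 without Lpl. Other cell types left counts too. The 3 endothelial markers summed to 187 and 254 against 195 with 0 calls in edgeR, and the 3 leukocyte markers to 180 and 235 against 373, where Ptprc was lower and the other 2 summed to 12 and 24 against 8. The 3 skeletal muscle markers summed to 74 and 45 against 18, where Ckm was higher, the 2 epididymis markers to 26 and 25 against 26, and the 2 erythroid markers to 10 and 8 against 3. The part of these cells in the 5S values was not tested.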

How the data were processed

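RNA immunoprecipitates from white fat were sequenced in 2 Flag-IP libraries and 1 IgG-IP library, per the labels. The authors deposited raw read counts per Ensembl gene, 1 column per library, with no normalization. Bowtie 0.12.2, CASAVA 1.7 and the build mm8 appear in the submitters' processing notes. No source used here gives the counting program, its strand setting or its handling of reads that match several places.

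Positions, RNA classes and sequences came from GENCODE M21 on GRCm38, matched by Ensembl identifier. The sequences themselves are not reported here. Genes with enough counts (edgeR's filterByExpr, minimum count 10) numbered 17587. They were fitted in edgeR 4.0.16 (R 4.3.3) with TMM factors and its quasi-likelihood test, with Benjamini-Hochberg adjustment over all of them and a threshold of 0.05. The fit has 1 residual degree of freedom per gene, which comes from the 2 Flag-IP libraries. Its spread is shared between genes (biological coefficient of variation 0.189). The prior degrees of freedom were infinite for all 17587 genes, so a gene's own spread had no weight in its p or standard error. A standard error is the log2 fold change divided by the square root of F. Normalized counts are counts over effective library size, times its mean. Log2 ratios of single libraries use log2 CPM with a prior count of 2, and ratios of sums use normalized counts. Identity to Rn5s came from global alignment in Biopython 1.88. Wilson intervals are at 95%. The edgeR fit was tested on simulated data.

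The members, lists, motif letters and tests were chosen with earlier results of these data known. Members named are the 10 with the highest mean count, Rn5s, the rows named 5S_rRNA and the ends of ranges. Copies with their own sequence, Rpf2, Rrs1, Rpl5, Rpl11, Gtf3a, Ptprc, Ckm, Gm20388 and n-R5-8s1 were named after their values were seen. From each other list the 2 largest fold changes at a mean count of 20 or more were named. The other settings were 5 scalings, 2 filters, 2 prior counts, DESeq2 1.42.0, a likelihood ratio test, a test against a 1.5-fold change and leaving out each Flag-IP library.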

Additional observations from a re-analysis of the deposited data

How the results depend on the processing

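No paired analysis was possible because the groups share only replicate number 1. The summed 5S log2 ratio was 0.91 and stayed above 0 under each setting tried. It was 0.38 with total-count scaling and 1.55 without the copies identical to Rn5s, and from 0.65 to 1.12 when either Flag-IP library was left out. The 33 higher copies became 5 with total-count scaling, 7 with DESeq2, 8 with the likelihood ratio test, 7 with the test against a 1.5-fold change and 7 of 16 rows with identical sequences summed, an alternative chosen after seeing the data that has fewer rows by construction. With a mean of at least 50 counts, 37 of 38 copies were higher, where 15.5% of genes were. DESeq2 gave no adjusted p for 16 of the 48 copies and for 15684 of the 17587 genes. Copies called lower were 0, and 1 with total-count scaling. Copies at least 2-fold higher in both Flag-IP libraries were 10 of 48 (20.8%), where 9.07% of genes were. With total-count scaling they were 3 (6.25%), near the 4.67% of all genes. The count was 10 without Flag-IP 1, where 13.9% of genes were, and 32 without Flag-IP 2, where 14.7% were. Of 33 pathway genes, 2 were called higher, with 1 under total-count scaling and 0 under DESeq2, and 1 lower, with 5 under total-count scaling, where 17.1% of all genes were, and 0 under DESeq2, which gave 32 of the 33 no adjusted p. The causes were not tested. Without a Flag-IP library there is no residual spread, so those values have no test, and IgG-IP cannot be left out. As 1 row of the edgeR fit the sum was at 0.90, given without a p.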
